A study of Mus musculus with 6 samples.

Results

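The transporters of sterols and phospholipids were followed in mouse liver after loss of the bile acid receptor FXR and of SHP, a repressor that FXR induces, in hepatocytes. The 8 members were chosen by name and function: Abcg5, Abcg8, Abcb4, Atp8b1, Abca1, Abcg1, Abcg2 and Npc1l1. All 8 were found among the 48699 genes of the deposited expression table, and 7 passed the filter for testing, a mean of at least 0.5 FPKM (fragments per kilobase of transcript, scaled to the library total) over the libraries. The groups were 3 control mice, homozygous for floxed alleles of Fxr (Nr1h4) and Shp (Nr0b2), and 3 mice whose hepatocytes lacked both genes (Fxr-/- Shp-/-). The animals were male C57BL/6 adults aged 10 to 12 weeks, and their livers were taken after 8 to 10 hours without food. The column names of the table carry the word chow, the sources used here do not name the driver of the deletion, and whole liver was measured, so cells other than hepatocytes keep both genes. In bulk tissue, fewer cells of a type and less RNA per cell cannot be told apart.

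Hepatocytes dispose of cholesterol by secreting it into bile, and they supply plasma lipoproteins with lipid at their other face. At the canalicular membrane, ABCG5 and ABCG8 form an obligate heterodimer that exports cholesterol and plant sterols. ABCB4 moves phosphatidylcholine to the outer leaflet, where bile salts extract it into mixed micelles, while ATP8B1 flips aminophospholipids back inwards and keeps the membrane resistant to bile salts. On the blood side, ABCA1 loads lipid-poor apolipoprotein A-I, and ABCG1 passes sterol to lipoprotein particles, mostly from macrophages. NPC1L1 takes cholesterol up rather than exporting it, and in mice it is known from the intestine. The oxysterol receptor LXR is the textbook inducer of Abcg5, Abcg8, Abca1 and Abcg1.

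The genes for the 2 half-transporters lie head to head on chromosome 17. On GRCm38, Abcg5 runs from 84683011 down to 84658234 on the minus strand, and the main Abcg8 transcript starts at 84683121 on the plus strand, so 109 bases separate both starts. A further Abcg8 transcript starts at 84676302, inside Abcg5, and 82 exonic bases are annotated to both genes on opposite strands (3.02% of the exonic bases of Abcg5 and 2.19% of those of Abcg8). The deposited table gives both genes the same locus. The sources used here do not say whether the authors' values use strand, so a small part of the reads may have been shared. The stretch between the starts is shown because it serves both genes. The sequence upstream of Abca1 is shown because, among the 8 members, that gene is the other LXR target whose groups did not overlap. Both were taken from RefSeq promoter windows on GRCm38.p6, in which 6 of the 8 members were found.
Abcg5 and Abcg8, chr17:84683012-84683120, plus strand, running away from Abcg5 towards Abcg8: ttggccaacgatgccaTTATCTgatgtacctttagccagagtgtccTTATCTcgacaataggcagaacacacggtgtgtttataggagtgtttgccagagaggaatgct
Abca1, chr4:53159896-53160145, minus strand, ending at the last base before the start: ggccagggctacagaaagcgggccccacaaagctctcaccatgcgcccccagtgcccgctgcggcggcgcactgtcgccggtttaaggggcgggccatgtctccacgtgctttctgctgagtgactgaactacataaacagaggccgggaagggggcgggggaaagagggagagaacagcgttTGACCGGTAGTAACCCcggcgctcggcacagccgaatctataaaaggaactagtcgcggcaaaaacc
The capitals in the first sequence mark 2 matches to the GATA motif AGATAA, both on the minus strand, 17 to 22 and 47 to 52 bases before the Abcg5 start. Of the 32851 promoter windows in the table, 3.98% hold at least 1 such match in their last 109 bases and 0.186% hold at least 2. The nuclear receptor half-site AGGTCA (6.39% of windows), its extended form AAGGTCA (1.63%) and CCAAT (20.1%) were not found in those 109 bases on either strand, and TATAAA (5.90%) was found once, on the minus strand. A direct repeat of AGGTCA with 4 bases between the half-sites, the layout that LXR is known to bind, was searched with up to 3 mismatches over 12 positions. It was not found in the shared stretch (7.77% of windows) and was found once upstream of Abca1, with 3 mismatches, where the capitals mark it. It reads on the strand opposite to the one printed, the plus strand of the chromosome. Of all windows of 250 bases, 18.5% hold such a match.

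Depth was similar in all libraries: the smallest steps of the FPKM values correspond to between 13200000 and 14100000 fragments. The deleted genes were lower in every knockout library, Nr0b2 at 14.7 to 18.7 FPKM in controls and 0.0734 to 0.293 FPKM in knockouts, Nr1h4 at 59.8 to 71.8 and 15.5 to 22.0 FPKM. Control replicate 3 stood apart from its group: across genes, which are not independent replicates, its log2 values correlated at 0.952 and 0.955 with the other controls, which correlated at 0.983 with each other. The highest correlation of control replicate 3 was with double knockout replicate 3, at 0.966. That knockout correlated at 0.976 and 0.970 with the other knockouts. Results below are also given without control replicate 3 where it matters. Hepatocyte markers were high in every library, with the sum of 9 markers between 64091 and 77181 FPKM in controls and between 36442 and 57350 FPKM in knockouts, mostly through albumin (Alb, 40888 ± 3458 and 24950 ± 8925 FPKM; SD, n = 3 each).

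Of the 7 tested transporters, 1 was past the threshold, Abcg8, which rose in the knockouts, and 0 were lower. All 7 fold changes were positive, with a median log2 value of 0.28 against -0.01 over all tested genes. Abcg8 (ENSMUSG00000024254.15) measured 29.3, 25.0 and 22.5 FPKM in control replicates 1 to 3, and 68.3, 65.4 and 79.4 FPKM in double knockout replicates 1 to 3. The groups did not overlap, and the lowest knockout was 2.23-fold above the highest control. Its mean went from 25.6 ± 3.44 to 71.0 ± 7.42 FPKM (SD, n = 3 each), 2.78-fold higher. The log2 fold change, always the knockout minus control difference of log2(FPKM + 1), was 1.44 (SE 0.16, 95% interval 1.07 to 1.81, limma adjusted p = 0.0219). Over all 11810 tested genes, 0.169% were called higher and 0.144% lower by this test, and groups that did not overlap were found in 11.3% (knockouts higher) and 11.6% (lower). About 1134 to 4075 fragments stand behind each Abcg8 value, a counting error of at most 2.97%. In the authors' deposited table Abcg8 was also called higher (q = 0.00226), where 2.85% of the tested genes were called higher and 1.73% lower. Without control replicate 3 the Abcg8 call was kept (log2 fold change 1.36, limma adjusted p = 0.0156). Leaving out any other single library ended the call, with a log2 fold change between 1.36 and 1.54 and limma adjusted p between 0.0694 and 0.158.

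**Figure D1:**
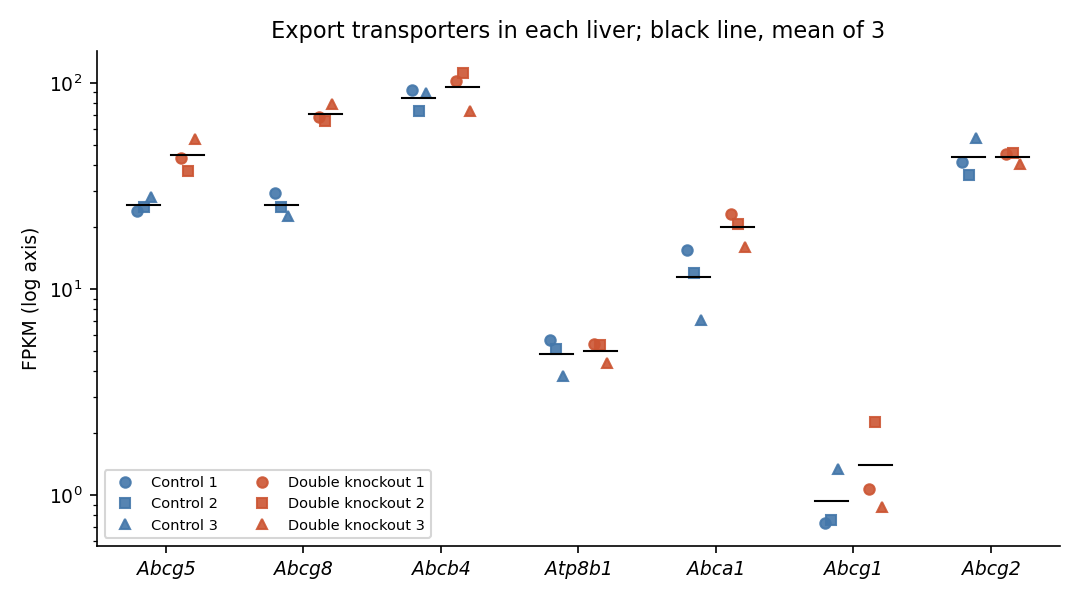
FPKM (log axis) of 7 transporters in each of 3 control (blue) and 3 double knockout (orange) livers; marker shapes give the replicate number and black lines the group means. The groups do not overlap for Abcg5, Abcg8 and Abca1, and they overlap for the other 4.

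Abcg5 (ENSMUSG00000040505.13), the partner subunit, measured 23.9, 25.0 and 28.0 FPKM in control livers against 43.1, 37.5 and 53.4 FPKM in knockout livers. The groups did not overlap, with the lowest knockout 1.34-fold above the highest control. The mean was 1.74-fold higher in the knockouts (25.6 ± 2.12 and 44.7 ± 8.04 FPKM, SD, n = 3 each). Its log2 fold change of 0.77 (SE 0.17, 95% interval 0.37 to 1.16) had an unadjusted limma p of 0.00225 and did not pass the threshold over all genes (limma adjusted p = 0.141). The authors' deposited table did not call it either (q = 0.334). It was past the threshold when libraries were weighted by their fit (log2 fold change 0.80, limma adjusted p = 0.0247), a setting under which 2.76% of all tested genes were called higher and 2.01% lower. Without control replicate 3 it was just outside the threshold (limma adjusted p = 0.0630).

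The balance of both subunits did not overlap between the groups. In controls the FPKM of Abcg5 was 0.817, 1.00 and 1.24 times that of Abcg8, and in knockouts 0.631, 0.574 and 0.672 times. Abcg8 thus stood above Abcg5 in each knockout liver, while in the controls the order varied. The geometric mean ratios were 1.01 and 0.624, a 1.61-fold difference. An exact two-sided permutation test gave p = 0.1, the smallest p that 3 against 3 libraries allow (adjusted p = 0.2 over 4 ratios). Within the controls the 2 genes also differed: Abcg5 was highest and Abcg8 lowest in control replicate 3. In the knockouts they had the same order, both highest in replicate 3 and lowest in replicate 2.

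The gene profiles closest to each subunit, by root mean square distance between centred log2(FPKM + 1) values over the 6 libraries, were other genes. For Abcg5 these were Arhgap4 (distance 0.0953), Accs (0.0996) and Fnip2 (0.102), with Abcg8 at rank 2242 of 9823 genes (0.382). For Abcg8 they were Lrtm1 (0.125), Rasgrp2 (0.135) and Srgap3 (0.158), with Abcg5 at rank 89. Rasgrp2, for example, measured 15.6, 13.9 and 15.5 FPKM in control livers against 45.7, 36.3 and 50.1 FPKM in knockout livers. Lrtm1 was low, at 0.426, 0.243 and 0.402 FPKM in control livers against 2.44, 2.07 and 2.78 FPKM in knockout livers. Srgap3 was low too, at 0.221, 0.285 and 0.205 against 2.15, 1.65 and 2.11 FPKM. The added 1 understates changes of low genes, so a small distance is not an equal fold change. All these libraries are shared by every profile, so the ranks are a description.

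Markers of bile duct cells moved with the groups beside the sterol transporter. The sum of 8 cholangiocyte markers was 39.0 to 47.7 FPKM in controls and 64.0 to 68.7 FPKM in knockouts, mostly through Spp1 (limma adjusted p = 0.146), at 36.0 ± 5.95 and 58.5 ± 2.96 FPKM (SD, n = 3 each). Spp1, osteopontin, is also made by other cells. Epcam was at 0.578 ± 0.158 and 1.03 ± 0.226 FPKM (SD, n = 3 each). Of the 8 markers, 2 had groups apart, both higher, as had 11.3% of all tested genes. Of the 5 that were tested, 0 were past the limma threshold, 1 was higher at an unadjusted p under 0.05, and 1 of the list, Spp1, was called higher in the authors' deposited table (2.85% of its tested genes). The part of these cells in the Abcg5 and Abcg8 values was not tested.

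**Figure D2:**
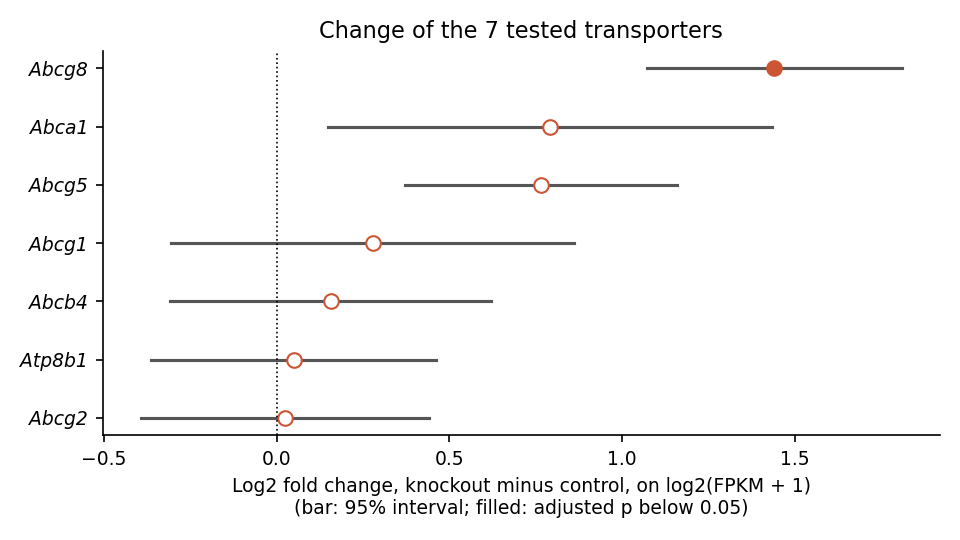
Log2 fold change (knockout minus control on log2(FPKM + 1)) of the 7 tested transporters with 95% intervals from limma. Abcg8, the filled point at 1.44, is past the adjusted threshold of 0.05; the intervals of Abca1 and Abcg5 lie above 0 without passing it.

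The phospholipid side of the canaliculus showed no change that the test could detect. Abcb4, the phosphatidylcholine floppase and the most abundant member by mean in both groups, lies on chromosome 5 (8893717 to 8959231, plus strand). It measured 92.6, 73.2 and 89.0 FPKM in control livers against 103, 111 and 73.3 FPKM in knockout livers. The groups overlapped, and double knockout replicate 3 lay at the level of the lowest control. The log2 fold change was 0.16 (SE 0.20, 95% interval -0.31 to 0.62, limma adjusted p = 0.738). Leaving out control replicate 2 gave 0.055, and leaving out double knockout replicates 1, 2 and 3 in turn gave 0.097, 0.038 and 0.34. Atp8b1, the aminophospholipid flippase on chromosome 18 (64528967 to 64661267, minus strand), was 17.6-fold less abundant than Abcb4 in controls by the geometric mean of their ratio. It measured 5.67, 5.13 and 3.795 FPKM in control livers against 5.39, 5.33 and 4.37 FPKM in knockout livers. Its log2 fold change was 0.05 (SE 0.18, 95% interval -0.36 to 0.46, limma adjusted p = 0.917), and its sign turned under 5 of 16 alternatives. The ratio of Abcb4 to Atp8b1 ran from 14.3 to 23.4 in the controls and from 16.8 to 20.9 in the knockouts (exact two-sided permutation p = 0.7).

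Sterol exporter and phospholipid exporter were also compared within each liver. The ratio of Abcg8 to Abcb4 was 0.317, 0.341 and 0.253 in the controls and 0.666, 0.587 and 1.08 in the knockouts. The groups did not overlap, and in double knockout replicate 3 Abcg8 exceeded Abcb4. The geometric mean ratio was 2.49-fold higher in the knockouts (0.301 and 0.751), with an exact two-sided permutation p of 0.1, the smallest possible (adjusted p = 0.2).

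**Figure D3:**
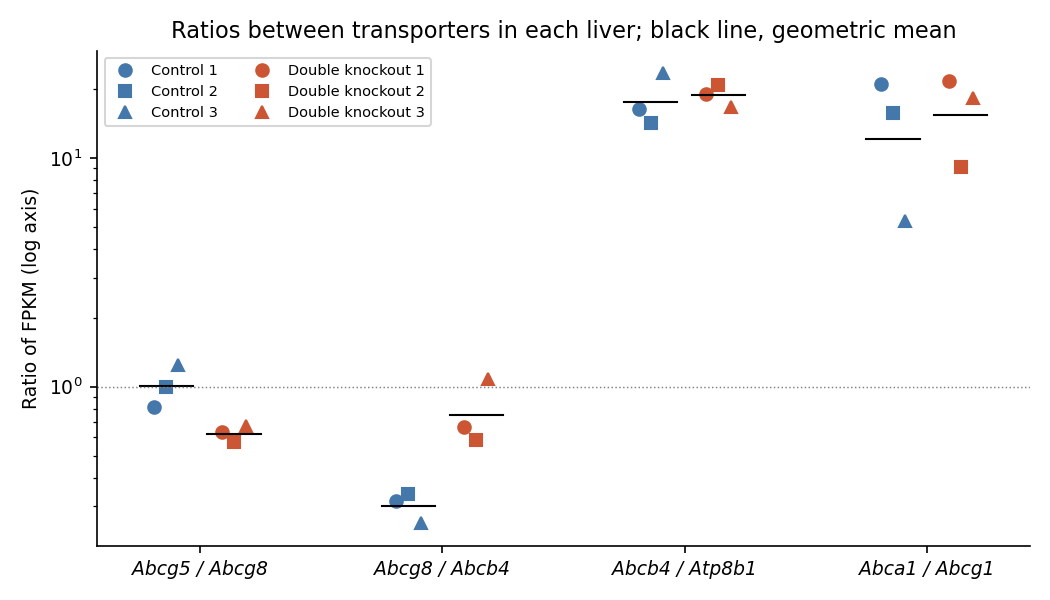
Ratio of the FPKM of 2 transporters (log axis) in each control (blue) and double knockout (orange) liver, with black lines at the geometric means and a dotted line at 1. The groups do not overlap for Abcg5 over Abcg8 and Abcg8 over Abcb4, and they overlap for Abcb4 over Atp8b1 and Abca1 over Abcg1.

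Of the transporters that load lipoproteins, Abca1 had groups apart. The gene lies on chromosome 4 (53030787 to 53159895, minus strand). It measured 15.4, 12.0 and 7.06 FPKM in control livers against 23.1, 20.7 and 15.99 FPKM in knockout livers. The lowest knockout, replicate 3, was only 1.04-fold above the highest control. The mean was 1.74-fold higher in the knockouts (11.5 ± 4.18 and 19.9 ± 3.61 FPKM, SD, n = 3 each). The log2 fold change of 0.79 (SE 0.27, 95% interval 0.15 to 1.43) did not pass the threshold (unadjusted limma p = 0.0221, limma adjusted p = 0.265), while the authors' deposited table called Abca1 higher (q = 0.0210). Without control replicate 3 the log2 fold change was 0.51 (limma adjusted p = 0.188).

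Abcg1, on chromosome 17 (31057675 to 31117988, plus strand), was low in liver, at 0.732, 0.757 and 1.33 FPKM in control livers against 1.07, 2.26 and 0.879 FPKM in knockout livers. The groups overlapped, and double knockout replicate 2 alone lay above every control. About 56.3 to 184 fragments stand behind a value, a counting error between 13.3% and 7.38%. The log2 fold change was 0.28 (SE 0.25, 95% interval -0.30 to 0.86, limma adjusted p = 0.625), on a scale that understates changes of low genes. It was 0.037 without double knockout replicate 2, and 0.42 and 0.43 without control replicate 3 and double knockout replicate 3. The ratio of Abca1 to Abcg1 ranged from 5.30 to 21.0 in the controls and from 9.16 to 21.6 in the knockouts (exact two-sided permutation p = 0.6).

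Macrophage markers put the libraries in nearly the same order as Abcg1. The sum of 13 Kupffer cell and macrophage markers was 155, 133 and 325 FPKM in control replicates 1 to 3, and 270, 567 and 241 FPKM in double knockout replicates 1 to 3. Sorted by that sum, Abcg1 increased along the libraries except for control replicates 1 and 2, whose order was exchanged. All 13 markers had positive fold changes (median 0.49, against -0.01 over all tested genes), 1 of them past the threshold, Mpeg1, at 9.97 ± 6.74 and 63.0 ± 9.12 FPKM (SD, n = 3 each). It was the only marker of the list with groups apart, where 11.3% of all tested genes had all knockouts higher. The authors' deposited table called 5 of the 13 higher (Mpeg1, Adgre1, Cd5l, Csf1r and Marco) and 0 lower, where it called 2.85% of all its tested genes higher. Abca1, which macrophages also make, did not follow this order: control replicate 3, with the highest sum among controls, had the lowest Abca1. The part of macrophage RNA in either gene was not tested.

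Targets of SREBP2, the factor that raises cholesterol synthesis and uptake when cell sterol is low, separated the third library of each group from the rest. The mean log2 level of 16 targets, relative to the control mean, was 1.22 and 0.89 in the third control and the third knockout. The other 4 libraries lay between -0.79 and -0.50. Abca1 and Atp8b1 were lowest in their group in those same libraries, and Abcg5 was highest. Of the 16 targets, 6 had positive and 10 negative fold changes (median -0.19), with 0 past the limma threshold, 0 at an unadjusted p under 0.05 and 0 called in the authors' deposited table. The most abundant were Fdps, a prenyl diphosphate synthase (122 ± 89.7 and 185 ± 147 FPKM), and Sc5d, a late enzyme of cholesterol synthesis (150 ± 83.7 and 145 ± 39.4 FPKM) (SD, n = 3 each).

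**Figure D4:**
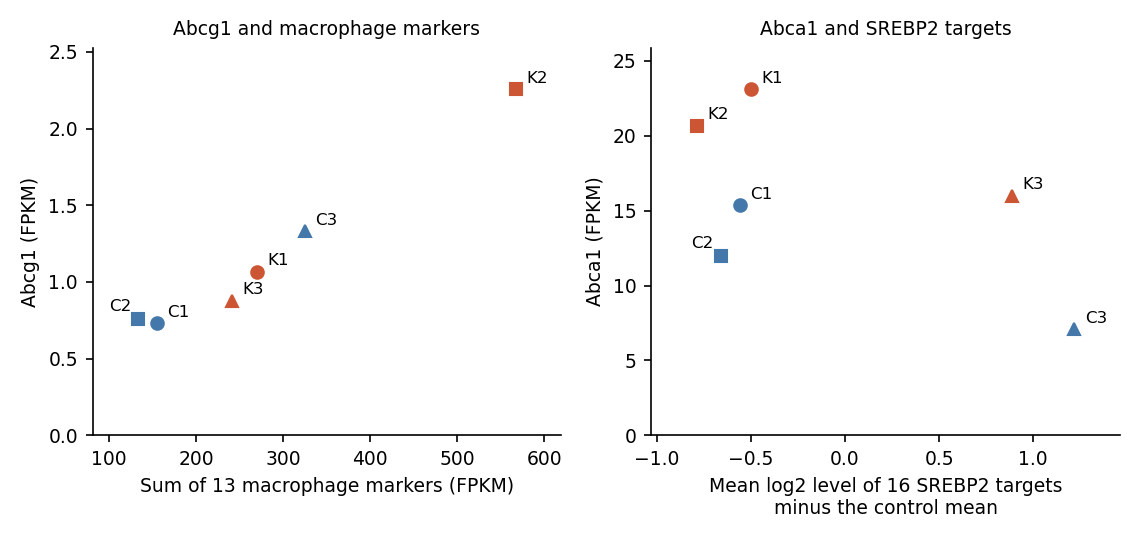
Left, Abcg1 FPKM against the summed FPKM of 13 macrophage markers; right, Abca1 FPKM against the mean log2 level of 16 SREBP2 targets relative to controls. Each point is 1 liver (C1 to C3, control; K1 to K3, double knockout). K2 has the highest Abcg1 (2.26 FPKM) and marker sum (567 FPKM), and C3 has the lowest Abca1 (7.06 FPKM) and the highest target level (1.22).

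Abcg2, an exporter of drugs, urate and porphyrins at the canaliculus and a relative of Abcg5 and Abcg8, lies on chromosome 6 (58584523 to 58695676, plus strand) and did not differ between the groups beyond its spread. It measured 41.2, 35.8 and 53.9 FPKM in control livers against 45.4, 45.6 and 40.5 FPKM in knockout livers. The log2 fold change was 0.02 (SE 0.18, 95% interval -0.39 to 0.44, limma adjusted p = 0.961), with a sign that turned under 6 of 16 alternatives. Without control replicate 3 it was 0.18 (limma adjusted p = 0.431).

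Npc1l1, on chromosome 11 (6211013 to 6230143, minus strand), was near the limit of detection. It was listed at 0.0162 and 0.0151 FPKM in control replicates 1 and 2, each about 1 fragment, and at 0 in control replicate 3 and in the 3 knockouts. A count of 0 allows up to 3 fragments, which corresponds to 0.0477 to 0.0490 FPKM in those 4 libraries, for counting error only. It was not tested, and no direction can be read from these values. Of 8 enterocyte markers, 5 stayed below 0.1 FPKM in every library (Lct, Sis, Alpi, Cdh17 and Muc13, 3 of them listed at 0 throughout). Their sum of 236 to 423 FPKM in controls and 111 to 422 FPKM in knockouts came from Apoa4 and Fabp2, which mouse liver also expresses. Fabp2, a fatty acid binding protein, was the only marker of this list that the authors' deposited table called, as lower, where it called 1.73% of its tested genes lower. Its groups did not overlap, at 108 ± 31.3 and 43.9 ± 12.5 FPKM (limma adjusted p = 0.134; means ± SD over livers, n = 3 each).

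The order of the levels, compared per length as FPKM, shifted in its upper part. In each control Abcb4 was first and Abcg2 second, and Abcg5 and Abcg8 shared the next places with overlapping ranges. Abca1, Atp8b1, Abcg1 and Npc1l1 followed in that order in all 6 libraries, with neighbouring ranges apart. In the knockouts Abcg8 moved up to second place in replicates 1 and 2 and to first place in replicate 3, and its range overlapped that of Abcb4. It stood above Abcg5 in all 3, with their ranges apart. Abcg5 and Abcg2 had overlapping ranges there, with means of 44.7 and 43.8 FPKM.

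Around the transporters, 115 genes in 7 lists were looked at, and 101 passed the filter. None was past the limma threshold in either direction; 8 were higher and 6 lower at an unadjusted p under 0.05, where 823 and 942 of all 11810 tested genes were. The authors' deposited table called 2 of them higher, Srebf1 and Atp11a, and 0 lower (2.85% and 1.73% of its tested genes). Their groups were apart in 9 (higher) and 11 (lower) of 101, against 11.3% and 11.6% of all tested genes.

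In the LXR pathway, 8 of 15 genes lay above and 7 below a log2 fold change of 0 (median 0.13). Its most abundant members were apolipoprotein E (Apoe, 23528 ± 3053 and 18879 ± 2292 FPKM) and the desaturase Scd1 (1382 ± 712 and 1472 ± 1531 FPKM) (SD, n = 3 each). Of all 11810 tested genes, 823 were higher at an unadjusted limma p under 0.05. So were 2 members of this list, named after their values were seen. These were Rxra, the partner receptor of both LXR and FXR (73.9 ± 12.9 and 114 ± 13.03 FPKM), and Lpcat3, a lysophospholipid acyltransferase (38.8 ± 2.09 and 53.1 ± 7.17 FPKM) (limma adjusted p = 0.200 and 0.267; means ± SD over livers, n = 3 each). Srebf1, chosen because the authors' table called it, which encodes the lipogenic factor SREBP1, was at 12.8, 11.1 and 20.6 FPKM in control livers against 20.5, 14.2 and 48.5 FPKM in knockout livers, with overlapping groups (limma adjusted p = 0.462; q = 0.0256 in the authors' deposited table).

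Of 9 receptors and factors known to act at the Abcg5 and Abcg8 locus, 5 lay above and 4 below a log2 fold change of 0 (median 0.13), with 0 at an unadjusted limma p under 0.05 and 0 called in the authors' deposited table. Hnf4a, a hepatocyte master regulator, was at 158 ± 35.4 and 130 ± 11.4 FPKM (SD, n = 3 each). Nr1h3, which encodes LXRα, was at 57.6 ± 6.53 and 48.7 ± 2.46 FPKM (limma adjusted p = 0.472; means ± SD over livers, n = 3 each), with the knockouts below every control.

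Among 22 genes of cholesterol uptake, trafficking and esterification, 12 were positive and 10 negative (median 0.03). The most abundant were Apoa1, the acceptor of ABCA1 (10685 ± 2009 and 8235 ± 1357 FPKM), and the sterol carrier Scp2 (2107 ± 122 and 1647 ± 162 FPKM) (SD, n = 3 each). Scarb1, the receptor that takes up cholesterol from high-density lipoprotein, measured 68.5, 67.9 and 74.2 FPKM in control livers against 102, 101 and 97.1 FPKM in knockout livers (limma adjusted p = 0.179). With library weights Scarb1 was past the threshold (limma adjusted p = 0.0364), a setting under which 2.76% of all tested genes were called higher. Scarb1 was named after its values were seen.

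In phosphatidylcholine supply, which feeds ABCB4, 9 of 11 tested genes had a negative fold change (median -0.24), and 6 of the 11 had all knockouts below all controls, as did 11.6% of all tested genes. At an unadjusted limma p under 0.05, 4 were lower and 1 higher, where 942 and 823 of all 11810 tested genes were. None passed the adjusted threshold and the authors' deposited table called 0. The most abundant were the lipid transfer protein Stard10 (915 ± 108 and 683 ± 106 FPKM) and Pemt, which methylates phosphatidylethanolamine (354 ± 95.1 and 220 ± 36.8 FPKM) (limma adjusted p = 0.369 and 0.270; means ± SD over livers, n = 3 each). Chpt1, the cholinephosphotransferase, measured 135, 135 and 145 FPKM in control livers against 111, 84.9 and 93.2 FPKM in knockout livers (limma adjusted p = 0.209). Chpt1 was chosen with its values known. The 2 tested genes of this list with positive fold changes were Pcyt1a (16.1 ± 4.37 and 21.2 ± 3.16 FPKM) and Lpcat3 (38.8 ± 2.09 and 53.1 ± 7.17 FPKM) (SD, n = 3 each). Of 9 hepatocyte markers, 8 had a negative fold change as well (median -0.25). Whether the supply genes share a wider shift was not tested.

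Of 16 P4-ATPases and CDC50 subunits, the family of Atp8b1, 8 were tested, with 6 positive and 2 negative fold changes (median 0.32). At an unadjusted limma p under 0.05, 3 were higher and 0 lower, where 823 and 942 of all 11810 tested genes were. Tmem30a, the subunit that brings Atp8b1 to the membrane, was at 70.2 ± 12.8 and 63.4 ± 3.41 FPKM (limma adjusted p = 0.734; means ± SD over livers, n = 3 each). Atp11a, chosen for the same reason as Srebf1, measured 1.49, 2.203 and 2.94 FPKM in control livers against 4.13, 5.68 and 4.08 FPKM in knockout livers. Its limma adjusted p was 0.182, and its q was 0.0355 in the authors' deposited table. With library weights Atp11a was past the threshold (limma adjusted p = 0.0376), where 2.76% of all tested genes were called higher.

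Of 30 other ABC transporters, 25 were tested, 17 with a positive and 8 with a negative fold change (median 0.11). At an unadjusted limma p under 0.05, 1 was higher and 2 were lower, where 823 and 942 of all 11810 tested genes were. The most abundant were the peroxisomal fatty acid transporter Abcd3 (198 ± 61.1 and 201 ± 19.0 FPKM) and the bile salt export pump Abcb11 (128 ± 55.0 and 65.4 ± 7.72 FPKM) (SD, n = 3 each). Abcb11, a textbook FXR target and the canalicular neighbour of the sterol and phospholipid exporters, measured 144, 172 and 66.2 FPKM in control livers against 74.3, 61.6 and 60.3 FPKM in knockout livers. Control replicate 3 lay inside the knockout range (log2 fold change -0.85, limma adjusted p = 0.312). Without that library Abcb11 fell past the threshold (-1.26, limma adjusted p = 0.0233), in a fit that called 1.31% of genes higher and 0.746% lower. With library weights Abcb11 did so too (-1.18, limma adjusted p = 0.0275), where 2.76% of all tested genes were called higher and 2.01% lower.

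Of the remaining marker lists, the sum of 8 sinusoidal endothelial markers overlapped between groups (61.1 to 75.3 and 41.9 to 82.4 FPKM), with 2 positive and 6 negative fold changes (median -0.09). Stab2, at 3.86 ± 0.134 and 6.08 ± 1.80 FPKM (SD, n = 3 each), was the only marker apart, with all knockouts higher, as in 11.3% of all tested genes. The sum of 8 stellate cell markers overlapped too (48.8 to 99.6 and 50.03 to 129 FPKM), with 6 positive and 2 negative fold changes (median 0.39). The authors' deposited table called 1 of them higher, Col1a1, as it did 2.85% of its tested genes. The most abundant stellate cell markers were Dcn, decorin, at 61.4 ± 20.3 and 63.4 ± 30.2 FPKM, and Col3a1, a fibrillar collagen, at 5.64 ± 3.81 and 9.28 ± 6.15 FPKM (SD, n = 3 each).

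**Figure D5:**
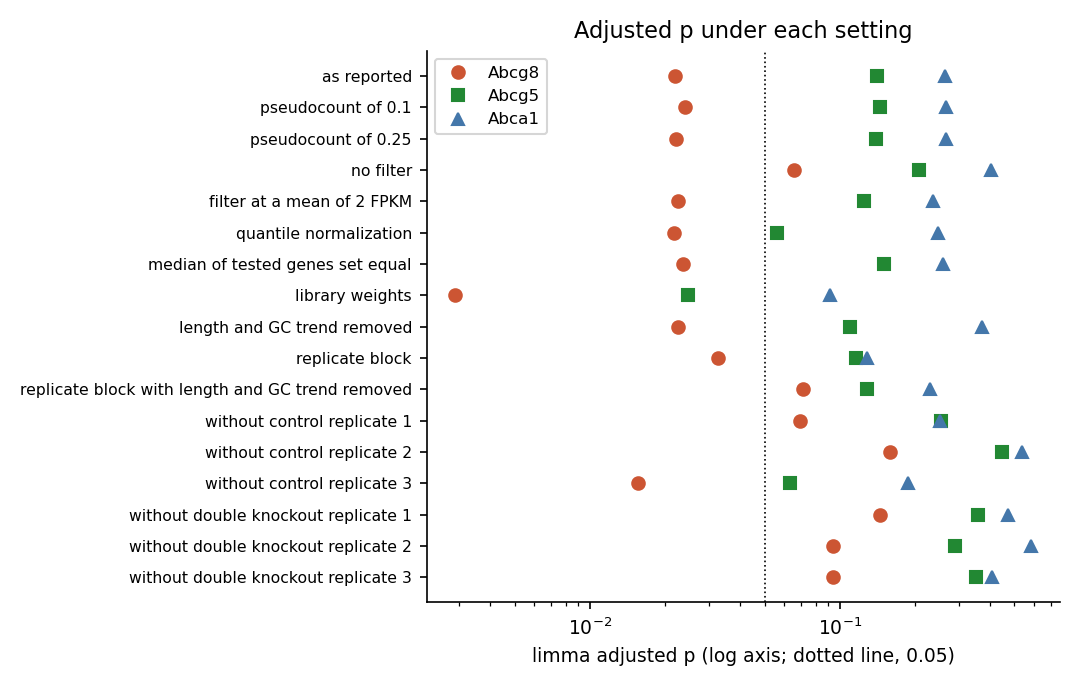
Adjusted p from limma (log axis) of Abcg8, Abcg5 and Abca1 under the reported setting and 16 alternatives, with a dotted line at 0.05. Abcg8 lies left of the line under the reported setting and 9 alternatives, Abcg5 with library weights alone, and Abca1 under none.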

How the data were processed

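Liver RNA was sequenced as 6 stranded mRNA libraries, per the labels' protocols. Cuffdiff 2.2.1, STAR 2.4.2a, Picard 1.119, Trimmomatic, bcl2fastq 2.17.1.14 and the build GRCm38 are listed, without roles, per the submitters' processing notes. The authors deposited FPKM per library, and a comparison with group FPKM, p-values and q-values. In 27 rows, gene symbols turned into dates were restored. Positions, lengths and GC came from GENCODE M21.

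Genes whose mean reached 0.5 FPKM were tested with limma 3.58.1 (R 4.3.3), moderated along a mean-variance trend, on log2(FPKM + 1), with Benjamini-Hochberg adjustment over all of them at 0.05. The script was tested on simulated data. Ratios between members were tested by exact two-sided permutation over libraries. FPKM share a library total, so a change in abundant transcripts shifts others. The labels do not say how replicates were obtained. Each library is described here as 1 mouse, and p-values measure the spread between these samples. Fragments per value were estimated from the smallest values of genes over 1500 bases with 1 transcript, and cover counting error only.

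The members, lists and tests were chosen with earlier results of these data known. Named besides the members were, per pathway list, genes past the threshold or the 2 most abundant; per marker list, up to 3 markers with groups apart or the 2 most abundant; and the 3 profiles nearest to Abcg5 and Abcg8. Other genes are marked as named after their values were seen. Some genes that the rule names are not reported here. Alternatives covered pseudocounts, filters, scaling, library weights, length and GC, a replicate block and leaving out each library.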

Additional observations from a re-analysis of the deposited data

How the results depend on the processing

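Abcg8 had a log2 fold change between 1.36 and 1.56 over 16 alternatives, and Abcg5 one between 0.63 and 0.88. The number of transporters called higher was 1 as reported, 0 without a filter on low values (more genes tested), 2 with library weights and 0 with a replicate block and the length and GC trend removed, where Abcg8 had a limma adjusted p of 0.0716. It was 0 to 1 when 1 library was left out, and 0 transporters were called lower under any of the 16. Among the 101 tested pathway genes, library weights called 2 higher and 1 lower, where they called 2.76% and 2.01% of all tested genes. Leaving out 1 library called 0 pathway genes higher. It called 1 lower only without control replicate 3, where 0.746% of all tested genes were called lower. Leaving out 1 library moved the log2 fold change of Abcb4 between 0.038 and 0.34 and that of Abcg1 between 0.037 and 0.43, with neither called. The sign of Abcg2 turned with length and GC trend removed, with and without the block (-0.054 in both), and leave-one-out values ran from -0.10 to 0.18. Atp8b1 was at -0.00032 with quantile normalization, -0.028 with library weights, -0.15 with length and GC trend removed, with and without the block, and from -0.089 to 0.15 when 1 library was left out. The log2 ratio of Abcb4 over Atp8b1 ran from -0.055 to 0.30 and that of Abca1 over Abcg1 from -0.25 to 0.75 when 1 library was left out. The cause of these changes was not tested. Deviations from the group means correlated across genes at 0.22, -0.08 and 0.30 in same-numbered libraries, and at -0.32 to 0.25 in differently numbered ones. With 3 libraries per group these values cannot tell whether the numbers pair the samples. With the replicate block alone Abcg8 kept its call (limma adjusted p = 0.0327). All genes then gave 27 higher and 23 lower, against 20 and 17. Values of Npc1l1 are limited by depth.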
